A study of Mus musculus with 12 samples.

Results

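The genes described here are the D-type cyclins, their kinases CDK4 and CDK6, the inhibitors of these kinases and the factors on which the kinases act: Ccnd1, Ccnd2, Ccnd3, Cdk4, Cdk6, Cdkn1b, Cdkn2c, Cdkn2d, Rb1 and E2f1. They were taken by symbol and are 10 of the 32289 features of each count table. The samples were superior mesenteric ganglia of 129+Ter/SvJcl mice, dissociated and run as single cells on a droplet platform that counts the 3' ends of transcripts by unique molecular identifier (UMI). Of the 12 mice, 1 was a 3-week-old wild-type, 10 were 3-week-old Th-MYCN+/- hemizygotes and 1 was a 6-week-old Th-MYCN+/- hemizygote that had been chosen because a tumor was visible. Th-MYCN mice carry human MYCN under the rat tyrosine hydroxylase promoter, so the transgene is driven in catecholaminergic cells, and the 12 libraries share the strain background. Each library came from a single mouse, and the wild-type and the 6-week groups have no replicate.

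D-type cyclins link growth signals to the cell cycle. They activate CDK4 and CDK6, which phosphorylate the retinoblastoma protein (Rb1) and so free E2F factors such as E2F1 to turn on the genes of DNA replication. Cdkn2c (p18) and Cdkn2d (p19) bind CDK4 and CDK6 and keep cyclin D away, and Cdkn1b (p27) binds cyclin-CDK complexes and is best known as an inhibitor of CDK2. In the sympathetic lineage neuroblasts divide, while ganglion neurons have left the cycle, and Ccnd1 is known for high levels in neuroblastoma.

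The promoter of Cdk4 is shown because Cdk4 was, with Ccnd1, the most abundant of the 10 genes in the cells that expressed the MYCN transgene. A further reason is that CACGTG, the canonical E-box, is a sequence that MYC family proteins are known to bind. The 250 bases before the RefSeq start of Cdk4 (GRCm38.p6, chr10:127063285-127063534, plus strand) are given 5′ to 3′ with each CACGTG in capitals.
Cdk4: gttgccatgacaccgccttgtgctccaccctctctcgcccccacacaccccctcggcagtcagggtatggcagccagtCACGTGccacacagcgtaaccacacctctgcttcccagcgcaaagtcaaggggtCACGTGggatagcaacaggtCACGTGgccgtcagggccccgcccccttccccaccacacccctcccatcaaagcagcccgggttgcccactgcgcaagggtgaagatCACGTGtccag
The 4 copies begin 172, 118, 98 and 11 bases before the start. CACGTG reads the same on both strands, and 6.02% of the 32851 RefSeq promoter windows of that length held at least 1 copy, while 7 windows held 4 or more. Promoter windows were given for 7 of the 10 genes, in 9 windows. None was given for Ccnd1, Ccnd2 and Rb1, so their promoters were not searched. Among the 9 windows, that of Cdk6 was the only other one with a CACGTG, 220 bases before its RefSeq start. The E2F letters TTTCCCGC, TTTGGCGC, TTTCGCGC and TTTGCCGC, searched on both strands, were found in none of the 9 windows and in 1.86% of all windows. The E2f1 window (chr2:154569427-154569676, minus strand) lies inside the annotated gene, which starts at 154569892. The bases before that start were therefore not searched for E2f1. The Cdk6 and Cdkn2c windows and the later Ccnd3 window (chr17:47593217-47593466) also lie inside their annotated genes. A match of letters is a description of the sequence and not a binding site measured here.

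Libraries held 1147772 to 6388766 UMIs, and 12038 droplets passed as cells, 522 to 1855 per 3-week Th-MYCN+/- mouse. Clusters were formed without the 10 genes and without the transgene, and were named from fixed markers as neuroblast-like (5271 cells), Schwann-like (2921), ganglion-like (2737), endothelial-like (515), fibroblast-like (141), myofibroblast-like (167), macrophage-like (191) and lymphocyte-like (95, with T and B cell markers together). Human MYCN was at 94.9 to 520 CPM (counts per 1e+06 UMIs) in neuroblast-like cells of the 10 Th-MYCN+/- 3-week mice, at 356 CPM in the 6-week mouse and at 0 in the 39 wild-type cells of that class. It was at or below 9.11 CPM in ganglion-like cells of all Th-MYCN+/- mice. The library of replicate 2 stood apart, with 38.9% of its UMIs in cells, 1515 ganglion-like cells and 11 Schwann-like cells. The 39 wild-type cells that clustered as neuroblast-like went against that name, because the summed level of the 12 neuroblast markers was 2796 CPM in them against 15476 to 20894 CPM in the 3-week Th-MYCN+/- mice, and their 12 ganglion markers summed to 30042 CPM. They were not read as wild-type neuroblasts. Of all cells, 187 carried a barcode that also occurred in another library.

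Ccnd1 and Cdk4 were by far the most abundant of the 10 genes in neuroblast-like cells, and both were several times lower in ganglion-like and Schwann-like cells. Ccnd2 and Cdk6 were nearly absent from neuroblast-like and ganglion-like cells and present in Schwann-like cells. Cdkn2d was high in neuroblast-like and in ganglion-like cells, whereas Cdkn2c was scarce in ganglion-like cells. The levels below are CPM within a mouse and class, for classes with at least 20 cells, and the number of such mice is given as n. UMIs were counted at 3' ends, so levels were not divided by gene length.

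**Figure D1:**
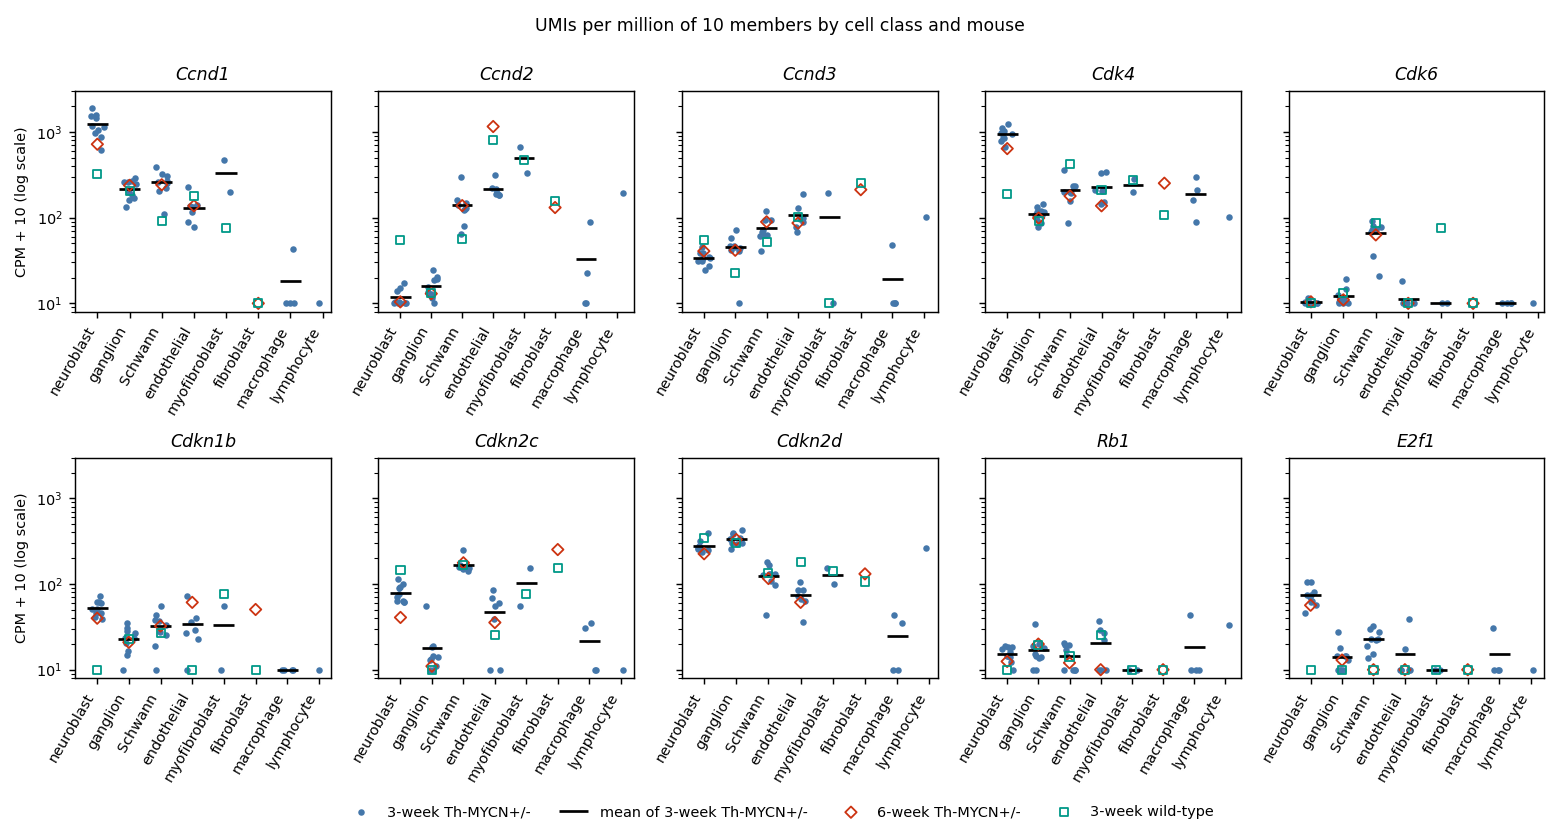
Level of each of the 10 genes by cell class, as CPM plus 10 on a log axis. Blue points are 3-week Th-MYCN+/- mice with at least 20 cells of the class, black bars their mean, red diamonds the 6-week mouse and green squares the wild-type mouse. Ccnd1 and Cdk4 stand highest in neuroblast-like cells, and Cdk6 stands above the floor mainly in Schwann-like cells.

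Ccnd1 (ENSMUSG00000070348, GRCm38 chr7:144929931-144939925, minus strand) is the cyclin D gene most often amplified in solid tumors. In neuroblast-like cells its level ran from 606 CPM in replicate 2 through a median of 1154 to 1877 CPM in replicate 9, with a mean of 1221 ± 382 CPM (SD, n = 10). In ganglion-like cells it ran from 124 through 213 to 277 CPM, and in Schwann-like cells from 99.1 through 253 to 377 CPM (n = 9). The lowest neuroblast-like value lay above the highest value of both other classes, so the groups did not overlap. How many of all genes separate in this way was not counted, here or for the genes below. The shares of all genes that differed between these classes are given with the tests below.

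Ccnd2 (ENSMUSG00000000184, chr6:127125162-127152193, minus strand) encodes the cyclin D commonly used in stromal, endothelial and lymphoid cells. The 4860 neuroblast-like cells of the 3-week Th-MYCN+/- mice held 12 Ccnd2 UMIs in all, and 5 of the 10 mice had none. Ganglion-like cells of these mice held 25 Ccnd2 UMIs in 2502 cells. Schwann-like cells of these mice held 340 Ccnd2 UMIs, from 55.1 through a median of 121 to 290 CPM (n = 9). Summed over mice, Schwann-like cells stood 176-fold above neuroblast-like cells, with a 95% counting interval of 99.6 to 345. Endothelial-like cells were at 205 ± 47.1 CPM (SD, n = 7). Free RNA, estimated at 0.55 to 7.55% of the UMIs of a cell, left 9 of the 12 neuroblast-like UMIs when subtracted.

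Ccnd3 (ENSMUSG00000034165, chr17:47505051-47599691, plus strand), the third D-type cyclin, was low in all 3 neural classes. It ran from 14.7 to 35.9 CPM in neuroblast-like cells, from 0 to 61.4 CPM in ganglion-like cells and from 30.8 to 110 CPM in Schwann-like cells. The neuroblast-like and ganglion-like ranges overlapped.

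Put as shares of the D-type cyclin UMIs of a class, Ccnd1 took nearly all of the family in neuroblast-like cells and a smaller part elsewhere. Ccnd1 made up 97.7 ± 1.29% of D-type cyclin UMIs in neuroblast-like cells (SD, n = 10) and 83.5 ± 8.23% in ganglion-like cells (n = 10). The share was 55.2 ± 11.6% in Schwann-like cells (n = 9) and 28.1 ± 5.12% in endothelial-like cells (n = 7), counting mice with at least 10 such UMIs. The lowest share among neuroblast-like samples, 94.3%, was above the highest among Schwann-like samples, 72%. Ganglion-like samples ran from 68 to 100%, the highest on 19 UMIs in replicate 6, so they overlapped with the neuroblast-like samples. Ccnd2 took 49.3 ± 6.72% of the family in endothelial-like cells and 28.9 ± 10.4% in Schwann-like cells. In the small classes the pooled counts gave Ccnd2 58.0% of 88 UMIs in myofibroblast-like cells (95% exact binomial interval 47.0 to 68.4%) and 55.2% of 29 UMIs in lymphocyte-like cells (35.7 to 73.6%).

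**Figure D2:**
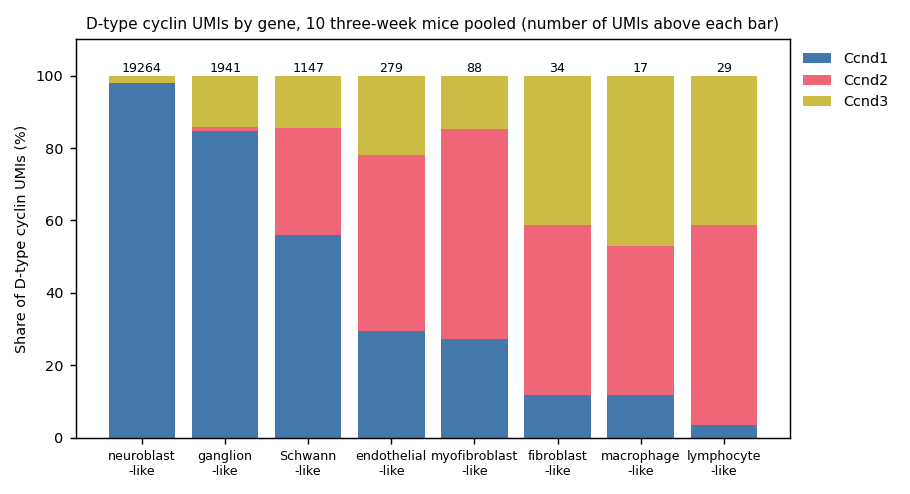
Share of D-type cyclin UMIs that fell on Ccnd1, Ccnd2 and Ccnd3 in each cell class, in percent, over the 10 Th-MYCN+/- mice of 3 weeks pooled, with the number of UMIs above each bar. Ccnd1 fills 98.01% of the neuroblast-like bar, 84.6% of the ganglion-like bar and 56.0% of the Schwann-like bar.

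Cdk4 (ENSMUSG00000006728, chr10:127063534-127067920, plus strand) is the main kinase partner of D-type cyclins in many cells. Its level in neuroblast-like cells ran from 654 CPM in replicate 10 through a median of 948 to 1219 CPM in replicate 8. In ganglion-like cells it ran from 68.7 through 101.1 to 135 CPM, and in Schwann-like cells from 77.1 through 188 to 354 CPM. No ganglion-like or Schwann-like sample reached the lowest neuroblast-like one. Cdk6 (ENSMUSG00000040274, chr5:3341485-3531008, plus strand), the second kinase, gave 5 UMIs over all neuroblast-like cells of these mice and 142 over all Schwann-like cells, where it ran from 11.01 through 62.8 to 80.8 CPM. Cdk4 accordingly made up 99.96 ± 0.057% of the Cdk4 and Cdk6 UMIs in neuroblast-like cells, with a lowest sample of 99.8%, against 77.6 ± 3.78% in Schwann-like cells (SD, n = 8).

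Among the inhibitors, Cdkn2d (ENSMUSG00000096472, chr9:21288410-21291407, minus strand) was the most abundant in both neuronal classes. It ran from 226 through 252 to 387 CPM in neuroblast-like cells and from 243 through 325 to 419 CPM in ganglion-like cells, and these ranges overlapped. In Schwann-like cells it ran from 33.03 to 170 CPM, below both. Cdkn2c (ENSMUSG00000028551, chr4:109660876-109667189, minus strand) ran from 51.1 through 63.0 to 106 CPM in neuroblast-like cells and from 134 through 148 to 239 CPM in Schwann-like cells. In ganglion-like cells Cdkn2c gave 29 UMIs in 2502 cells and a median of 3.70 CPM, and its highest sample there, 45.5 CPM, rested on 5 UMIs. Cdkn1b (ENSMUSG00000003031, chr6:134920401-134925513, plus strand) ran from 28.9 through 41.2 to 61.5 CPM in neuroblast-like cells and from 0 through 13.4 to 24.9 CPM in ganglion-like cells, without overlap.

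E2f1 (ENSMUSG00000027490, chr2:154559407-154569892, minus strand), an activating E2F factor, ran from 36.5 through 62.7 to 95.6 CPM in neuroblast-like cells. It was at 17.5 CPM or less in ganglion-like samples and at 22.0 CPM or less in Schwann-like samples, so the groups did not overlap. Rb1 (ENSMUSG00000022105, chr14:73183673-73325822, minus strand) was scarcely sampled, with 83 UMIs in neuroblast-like, 41 in ganglion-like and 16 in Schwann-like cells. Its ratio of neuroblast-like to ganglion-like cells over the pooled UMIs was 1.05 with a counting interval of 0.716 to 1.57, and 2 annotated genes overlap it on the same strand. Counting intervals cover counting error only.

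At equal depth, with each cell thinned to 500 UMIs, 41.2% of neuroblast-like cells had a Ccnd1 UMI (exact binomial interval 39.6 to 42.8%) and 37.4% had a Cdk4 UMI. The Ccnd1 share was 8.14% in ganglion-like and 9.89% in Schwann-like cells. Macrophage-like cells, the class with the lowest mean Ccnd1 level, had none in 130 thinned cells (upper exact binomial limit 2.80%), and the Ccnd1 shares above were beyond that. Since that class was lowest in these same data, it is not an independent negative control. Unthinned, 69.2% of neuroblast-like cells (median 2555 UMIs), 22.5% of ganglion-like cells (median 1148) and 1.20% of macrophage-like cells (median 1183) had a Ccnd1 UMI. For Ccnd2 the thinned shares were 0.027% in neuroblast-like, 0.195% in ganglion-like and 5.08% in Schwann-like cells, and for Cdk6 they were 0.027%, 0.049% and 3.01%.

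The differences between classes were tested over the 10 Th-MYCN+/- mice of 3 weeks with edgeR's quasi-likelihood test on UMIs summed per mouse and class, with the mouse as block, at least 5 cells in each sum and Benjamini-Hochberg adjustment over all genes tested. Against ganglion-like cells, 7 of the 10 genes passed the filter on low counts, 5 were higher in neuroblast-like cells, and 1 was lower. Of all 7825 genes tested, 36.2% were higher and 31.4% lower in neuroblast-like cells. The log2 fold change was 2.55 ± 0.147 (SE) for Ccnd1 (adjusted p = 1.27e-11) and 3.23 ± 0.133 for Cdk4 (adjusted p = 2.36e-13). Cdkn2c rose by 3.88 ± 0.352 (adjusted p = 6.69e-09), E2f1 by 3.72 ± 0.281 (adjusted p = 5.26e-10) and Cdkn1b by 1.78 ± 0.266 (adjusted p = 6.14e-06). Cdkn2d did not pass, with a log2 fold change of -0.22 ± 0.125 (adjusted p = 0.120), but passed without replicate 6 (adjusted p = 0.0383), without replicate 9 (adjusted p = 0.0372) or with log-normalized clustering (-0.31, adjusted p = 0.0325), each time as lower in neuroblast-like cells. Ccnd3 fell by 0.53 on the log2 scale (adjusted p = 0.0414), but lost the call without any of replicates 1, 4, 5, 7, 8 and 9, with an adjusted p up to 0.106. Without replicate 2, the log2 fold change was 2.53 for Ccnd1 and 3.16 for Cdk4.

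Between neuroblast-like and Schwann-like cells, 7 genes were tested, 4 were higher in neuroblast-like cells and 2 were lower, beside 36.6% higher and 31.9% lower of all 5744 genes tested. The split of all calls, 2103 higher and 1832 lower, became 2650 and 1466 with DESeq2 size factors, which moved the median log2 fold change of all genes from 0.09 to 0.35, less than the changes of the genes that passed. Ccnd1 rose by 2.07 ± 0.213 (SE) on the log2 scale (adjusted p = 6.48e-09), Cdk4 by 1.97 ± 0.179 (adjusted p = 7.13e-10), E2f1 by 2.21 ± 0.265 (adjusted p = 8.31e-08) and Cdkn2d by 0.94 ± 0.190 (adjusted p = 0.000122). Ccnd3 fell by 1.77 (adjusted p = 1.34e-07) and Cdkn2c fell by 1.49 (adjusted p = 8.94e-08). Cdkn1b did not pass at 0.58 ± 0.267 (adjusted p = 0.0563), and it passed without replicate 2 (adjusted p = 0.0398) or without replicate 3 (adjusted p = 0.0168). It also passed with DESeq2 (0.86, adjusted p = 0.00395), with DESeq2 size factors in edgeR (0.86, adjusted p = 0.00624), without the filter (adjusted p = 0.00130), without the block (adjusted p = 0.0425), with log-normalized clustering (adjusted p = 0.0186) and with Scrublet's top 5% removed (adjusted p = 0.0465). Ccnd2 and Cdk6 were removed by the filter. Without it, their log2 fold changes were -6.91 ± 0.333 (adjusted p = 1.71e-93) and -6.87 ± 0.406 (adjusted p = 1.98e-62), values that depend on the prior count because several neuroblast-like sums were 0.

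Ganglion-like cells differed from Schwann-like cells by less Cdkn2c, Cdk4 and Ccnd3 and by more Cdkn2d. Here 5 of the 10 genes were tested, 1 was higher in ganglion-like cells and 4 were lower, beside 35.9% higher and 34.3% lower of the 3217 genes tested. Cdkn2c fell by 5.31 on the log2 scale (adjusted p = 2.09e-12), Cdk4 fell by 1.16 (adjusted p = 2.98e-06) and Ccnd3 fell by 1.15 (adjusted p = 0.000346), while Cdkn2d rose by 1.30 ± 0.173 (SE, adjusted p = 5.30e-07). For Ccnd1 the log2 fold change of -0.38 ± 0.166 had an adjusted p of 0.0446 and lost the call without any of the 10 replicates, left out in turn, with an adjusted p of 0.0625 to 0.236.

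**Figure D3:**
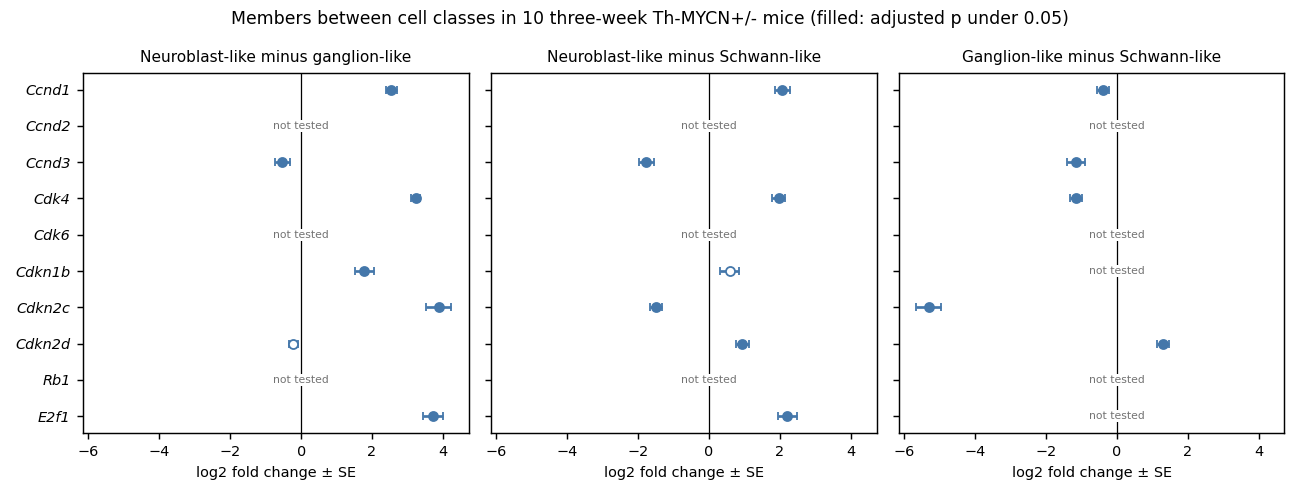
Log2 fold changes of the 10 genes between cell classes in the 10 Th-MYCN+/- mice of 3 weeks, from edgeR, with standard errors as bars. Filled points had an adjusted p under 0.05, open points did not, and genes removed by the filter on low counts are named as not tested. Ccnd1, Cdk4 and E2f1 lie to the right of 0 in both comparisons of neuroblast-like cells.

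The order of the 8 classes was compared between neighbours for each gene by an exact two-sided sign-flip permutation test over mice with at least 5 cells of both classes. Of 70 neighbouring pairs, 6 differed at an adjusted p under 0.05. Neuroblast-like cells led in Ccnd1, Cdk4 and E2f1, each above the next class in every mouse compared (10 of 10 against Schwann-like cells for Ccnd1 and for E2f1, and 9 of 9 against fibroblast-like cells for Cdk4; exact permutation adjusted p = 0.0456 for each). Myofibroblast-like cells led in Ccnd2, above endothelial-like cells in 9 of 9 mice, and Schwann-like cells exceeded macrophage-like cells in 9 of 10 (exact permutation adjusted p = 0.0456 for both). Ganglion-like cells exceeded macrophage-like cells in Cdkn1b (exact permutation adjusted p = 0.0456). Macrophage-like cells held 0 Cdkn1b UMIs among 292778 UMIs, a depth at which 3 UMIs would be 10.25 CPM. The ganglion-like mean was 12.9 CPM, so this call cannot tell a lower level from too few UMIs. The other 64 pairs did not pass. Of these, 15 include lymphocyte-like cells, which only 5 mice had in number, where the smallest possible p is 0.0625, so they could not have passed. Among the pairs with more mice that did not pass were Schwann-like and ganglion-like cells in Ccnd1 (exact permutation adjusted p = 1) and ganglion-like and neuroblast-like cells in Cdkn2d (exact permutation adjusted p = 0.205). The 6 calls were fragile: the smallest p that 10 mice allow is 0.00195, and all 6 lost the threshold together under several alternative cell filters and clusterings.

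Genes around the cyclin D step were described from lists of other CDK inhibitors, pocket proteins, E2F and DP factors, the cyclin E and CDK2 step, turnover factors and E2F targets, 42 genes in all. These genes took part in the clustering, so their counts are a description. Against ganglion-like cells, 26 of the 32 tested were higher in neuroblast-like cells and 1 was lower, with a median log2 fold change of 3.51 beside 0.09 over all genes. All 16 E2F targets were higher, led by Rrm2 (6.36), Ccna2 (5.90), Mcm5 (5.51) and Mcm6 (5.39), which act in nucleotide supply, cyclin A function and replication licensing. All 3 tested genes of the cyclin E and CDK2 step were higher. Cdkn1a (p21), an inhibitor induced by p53, was the gene that fell, by 0.61 on the log2 scale (adjusted p = 0.0126). Against Schwann-like cells 22 of 27 tested were higher and 3 lower, with Ccne1, the cyclin E gene, at 5.32 ± 0.381 (SE), Cdkn1a at -1.74, E2f5, a repressive E2F, at -1.55 and Ccnh, a subunit of the CDK-activating kinase, at -0.52. Between ganglion-like and Schwann-like cells 3 were tested and all were lower, Cdkn1a at -0.97, Ccnh at -0.91 and Pcna, the replication clamp, at -0.70.

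Within neuroblast-like cells, the 10 genes were followed across ranges of cell-cycle signal. Each cell with at least 1000 UMIs was thinned to 1000, and UMIs of 43 S phase genes and 54 G2 and M phase genes, none of them among the 10, were counted. Cells with at least 3 S UMIs and more S than G2M formed the S range, cells with at least 3 G2M UMIs and no fewer than S the G2M range, and cells with at most 1 UMI of both lists together the low-cycle range. These are ranges of a score and not measured phases: 71.4% of neuroblast-like cells but also 31.7% of ganglion-like cells fell in the G2M range. The reason for the ganglion-like share was not tested. Shorter lists of 28 S and 44 G2M genes, which left out genes whose ganglion-like level was at least 10% of the neuroblast-like one, put 60.8% of neuroblast-like and 1.12% of ganglion-like cells in the G2M range, with low-cycle then meaning no UMI. Both are given.

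Ccnd1 and Cdk4 were higher in the S and G2M ranges but were far from absent in low-cycle neuroblast-like cells, while E2f1 was highest in the S range and the INK4 inhibitors Cdkn2c and Cdkn2d in the G2M range. In the 8 mice with at least 5 cells of each range, Ccnd1 ran from 282 through 445 to 1106 CPM in low-cycle cells, from 1000 through 1436 to 2457 CPM in the S range and from 926 through 1301 to 1871 CPM in the G2M range. The low-cycle values overlapped with both other ranges. Even so, pooled low-cycle neuroblast-like cells held 428 CPM of Ccnd1 and 309.6 CPM of Cdk4, beside 211 and 93.3 CPM in ganglion-like cells.

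Between the S range and low-cycle cells 4 of the 10 genes could be tested and 3 rose, beside 15% of the 2584 genes tested. Ccnd1 rose by 1.39 ± 0.234 (SE) on the log2 scale (adjusted p = 0.000408), Cdk4 by 1.34 ± 0.242 (adjusted p = 0.000729) and E2f1 by 3.802 ± 0.445 (adjusted p = 1.05e-05). Cdkn2d did not pass, at 0.03 ± 0.328 (adjusted p = 0.962). With the shorter lists and 9 mice the values were 1.17 ± 0.152 for Ccnd1, 1.34 ± 0.191 for Cdk4 and 4.29 ± 0.314 for E2f1, all past the threshold. With clusters from log-normalized counts (7 mice) Ccnd1 was at 0.75 and Cdk4 at 0.65. With at least 4 UMIs for a range and none for low-cycle cells, which left 3 mice, Cdk4 was at 3.01.

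Between the G2M range and low-cycle cells 7 genes were tested and 6 rose, beside 15.2% of the 5493 genes tested. Ccnd1 rose by 1.39 ± 0.201 (SE, adjusted p = 1.80e-05), Cdk4 by 1.44 ± 0.227 (adjusted p = 5.28e-05) and E2f1 by 2.35 ± 0.486 (adjusted p = 0.000936). With clusters from log-normalized counts (7 mice) Ccnd1 was at 0.77 and Cdk4 at 0.72, both past the threshold. With the limit of 4 UMIs, which left 3 mice, Cdk4 was at 3.13. Cdkn2d rose by 1.13 ± 0.278 (adjusted p = 0.00419). Cdkn2d lost the call when each sum needed 10 cells, which left 4 mice (0.65, adjusted p = 0.128), or with the limit of 4 UMIs in 3 mice (0.78, adjusted p = 0.231). Cdkn2c, which was at 1 UMI in 109 low-cycle cells and at 834 UMIs in 2078 G2M cells, rose by 5.90 ± 0.656 (adjusted p = 4.90e-07), a fold that rests on the prior count, and by 4.47 ± 0.354 with the shorter lists. Cdkn1b rose by 1.43 ± 0.403 (adjusted p = 0.0110), but not with the shorter lists (0.63 ± 0.364, adjusted p = 0.173), without replicate 4 (adjusted p = 0.0650), with log-normalized clustering (adjusted p = 0.184) or with the limit of 4 UMIs (adjusted p = 0.0638).

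The S and G2M ranges were then compared directly in 9 mice, a comparison added after the ranges had been seen. Of the 7 genes tested, 2 were higher in the G2M range and 1 was lower, beside 3.27% higher and 2.71% lower of the 5051 genes tested. Cdkn2c was higher in the G2M range by 1.38 ± 0.178 (SE, adjusted p = 4.19e-05) and Cdkn2d by 0.99 ± 0.102 (adjusted p = 3.27e-06), while E2f1 fell by 1.51 on the log2 scale (adjusted p = 3.12e-06). With the shorter lists the values were 1.80, 1.44 and -1.20. Ccnd1 (-0.15 ± 0.052, adjusted p = 0.113), Cdk4 (-0.04 ± 0.057, adjusted p = 0.812), Cdkn1b (0.39 ± 0.196, adjusted p = 0.316) and Ccnd3 (-0.39 ± 0.196, adjusted p = 0.362) did not pass. In the same comparison 12 of the 27 pathway genes tested were lower and 2 higher, Ccna2 at 1.06 and the CDK subunit gene Cks1b at 0.58, but 9 of the 16 E2F targets belong to the lists that defined the ranges.

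**Figure D4:**
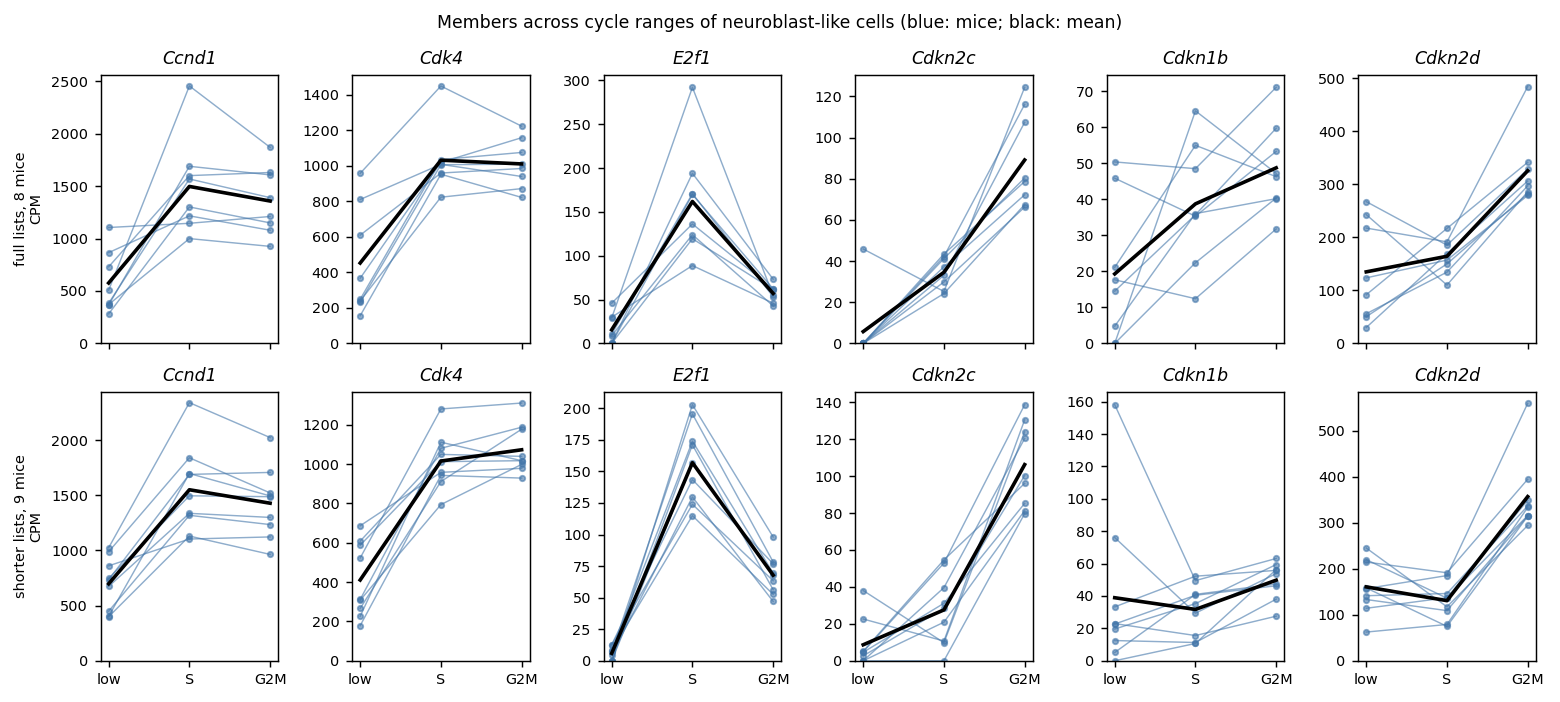
Level of 6 genes, in CPM on linear axes, in low-cycle, S range and G2M range neuroblast-like cells. Blue lines are 3-week Th-MYCN+/- mice with at least 5 cells in each range and black lines their mean. The upper row uses the full lists (8 mice) and the lower row the shorter lists (9 mice). E2f1 peaks in the S range, and Cdkn2c and Cdkn2d are highest in the G2M range in both rows.

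Whether Ccnd1 went with other genes of the pathway in the same cell was asked in neuroblast-like cells thinned to 1000 UMIs. Of cells with a human MYCN UMI, the share with a Ccnd1 UMI exceeded that of cells without by 3.16 ± 11.3 percentage points (SD, n = 9 mice), higher in 6 of 9 (exact sign-flip permutation adjusted p = 0.820). For Cdkn1b the difference was 0.51 ± 14.4 points, higher in 4 of 9 mice (exact sign-flip permutation adjusted p = 0.891). Ccnd2 could not be tested, since 3 thinned neuroblast-like cells held a Ccnd2 UMI and none of them a Ccnd1 UMI.

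The 6-week mouse was 1 animal, and its values were set beside the range of the 10 Th-MYCN+/- mice of 3 weeks without a test. In neuroblast-like cells Ccnd1 was at 711 CPM (Poisson interval 677 to 745), within the 3-week range, and Cdk4 was at 630.5 CPM (599 to 663), below the lowest 3-week mouse at 654. Cdkn2c, at 30.7 CPM (24.1 to 38.6), lay below the lowest 3-week value of 51.1, and Cdkn2d, at 216 CPM (197 to 235), below 226. The intervals of Cdk4 and Cdkn2d reached past those lowest values, and that of Cdkn2c did not. E2f1 at 46.5 CPM, Cdkn1b at 29.9 CPM and Ccnd3 at 30.7 CPM were within their ranges. Of 5681 genes with a mean of at least 20 CPM, 7.15% lay above and 13.2% below the 3-week range, beside 0 and 3 of the 7 genes of that abundance here. In the same cells the 12 neuroblast markers summed to 14342 CPM, under the 3-week range, and the 12 ganglion markers to 11486 CPM, over a 3-week range of 1029 to 8936 CPM, and their part in the lower values was not tested. With clusters from log-normalized counts Cdk4 was within the range, at 848 CPM.

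**Figure D5:**
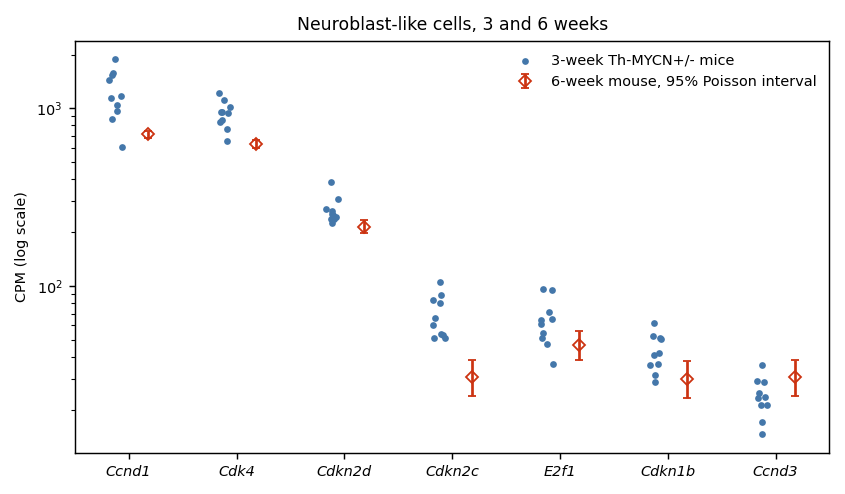
Levels in neuroblast-like cells as CPM on a log axis, for the 7 genes with a 3-week mean of at least 20 CPM. Blue points are the 10 Th-MYCN+/- mice of 3 weeks and red diamonds the 6-week mouse with its 95% Poisson interval. The 6-week values of Cdk4, Cdkn2d and Cdkn2c lie under the 3-week points.

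In ganglion-like cells none of the 10 genes of the 6-week mouse lay outside the 3-week range, where 5.1% of genes lay above and 3.13% below. These percentages again cover genes with a mean of at least 20 CPM, which only Ccnd1, Ccnd3, Cdk4 and Cdkn2d reached there. Apart from Ccnd1, Cdk4 and Cdkn2d, every gene had a 3-week ganglion-like sample at 0 and so could not lie below the range. In Schwann-like cells of the 6-week mouse E2f1 had no UMI, which allows up to 7.52 CPM, and the other 9 genes were within the range, where 4.86% of genes lay above and 5.68% below. E2f1, with a 3-week mean of 12.8 CPM in Schwann-like cells, and Rb1, with 4.54 CPM, were under the 20 CPM limit. The percentages for Schwann-like cells do not cover them, here or in the wild-type mouse. The wild-type mouse had 89 ganglion-like cells, in which Ccnd1 was at 196 CPM (150 to 252), Cdk4 at 80.5 CPM (52.1 to 119) and Cdkn2d at 290 CPM (233 to 356). All 10 genes were within the range of the Th-MYCN+/- mice there, where 8.63% of genes lay above and 7.27% below. The limits given above for ganglion-like cells of the 6-week mouse apply here too. In wild-type Schwann-like cells Ccnd1 was at 80.8 CPM on 19 UMIs and Ccnd2 at 46.8 CPM on 11 UMIs, both below the range, E2f1 had no UMI, and Cdk4 at 412 CPM was above it, where 9.11% of genes lay above and 10.9% below. These placements depended on the processing. When cells needed 500 genes and no more than 5% of mitochondrial UMIs, Cdk4 was within the range at 176 CPM and Ccnd1 at 83.6 CPM, and with free RNA subtracted Ccnd1 was within it at 81.5 CPM. With clusters from log-normalized counts Ccnd2 was within it at 52.8 CPM. E2f1, at 0 UMIs in both mice, was within the range under 3 alternatives in which a 3-week sample was also at 0.

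Genes whose levels followed those of the 10 most closely were looked for over 43 class sums of the 3-week Th-MYCN+/- mice, among 6579 genes. The sums share libraries and classes, so the coefficients are descriptions. Tspan6 (r = 0.925), Psip1 (0.912) and Maged1 (0.897) were nearest to Ccnd1, and Eif4a1 (0.896), Hnrnpa2b1 (0.893) and Kcnip1 (0.885) to Cdk4. Cnn2 (0.943), Igfbp4 (0.925) and Zfp36l1 (0.918) were nearest to Ccnd2. For Ccnd3 they were Lmf2 (0.820), Triobp (0.816) and Nr3c1 (0.753), and for Cdkn1b Safb (0.753), Klhl7 (0.723) and Cdca4 (0.722).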

How the data were processed

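Cells of the superior mesenteric ganglion from 12 mice were measured by droplet single-cell RNA-seq. The deposited count tables hold raw UMI counts per gene and barcode. Per the file headers the authors made them with Cell Ranger 3.0.2, with human MYCN added to the mm10 genome, before any filter on cells. Cells were called here with EmptyDrops (FDR 0.01, ambient limit 100 UMIs) and kept with at least 200 genes, at most 60% ribosomal and at most 10% mitochondrial UMIs. They were clustered with sctransform 0.4.2 and Seurat 5.3.0 without the 10 genes and the transgene. Clusters were named from fixed markers by a fold rule (1.5-fold over the median cluster, at least 3 markers) chosen once the clusters were known. Scrublet marked 0.399% of cells, which was not relied on as a doublet call, and doublets were not removed. Free RNA was estimated from barcodes outside the called cells.

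UMIs were summed per mouse and class and tested with edgeR 4.0.16 (quasi-likelihood, TMM, filterByExpr, mouse as block, FDR 0.05). Both classes came from the same mouse, and their deviations correlated positively in all mice of the 6 comparisons (r from 0.000413 to 0.518). Tested on simulated data, the step recovered 194 of 196 changed genes with 5 false calls between neuroblast-like and ganglion-like cells, and 190 of 194 with 6 between S range and low-cycle cells (log2 change 1.5). Levels over classes used exact permutation tests on log2(CPM + 10). DESeq2 1.42.0, other scalings, filters, clusterings and left-out mice were alternatives, and shorter cycle lists, a minimum of 1000 UMIs and the G2M against S comparison were added after seeing the data. The genes, lists and tests were chosen with earlier results of these data known. All 10 genes were named, with up to 4 pathway genes per direction and comparison by fold change, and the 3 genes of highest correlation for 5 of the 10. Depth ranged from 1147772 to 6388766 UMIs per library. Intervals cover counting error only.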

Additional observations from a re-analysis of the deposited data

Results flagged for a closer look

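Of 30 sets of 3-week Th-MYCN+/- samples examined for a sample far from the rest, 9 had one. A chance rate of about 1 in 20 need not hold for sets with few UMIs, and several flagged values rested on 5 UMIs or fewer. The count of 9 was therefore not read as an excess over chance. In Schwann-like cells Ccnd2 of replicate 9 was at 290.3 CPM on 95 UMIs (next 152.1), and Cdkn2c of replicate 5 was at 238.7 CPM on 76 UMIs (next 155.9). In neuroblast-like cells Cdkn2d of replicate 9 was at 386.5 CPM on 686 UMIs (next 308.2), and Cdk6 of replicate 7 was at 1.67 CPM on 1 UMI. The flagged ganglion-like values rested on few UMIs. Ccnd3 of replicate 6 was at 0 CPM (next 30.52). Cdk6 of replicate 3 was at 9.106 CPM on 1 UMI, Cdkn2c of replicate 3 at 45.53 CPM on 5, Rb1 of replicate 7 at 24.05 CPM on 5 and E2f1 of replicate 8 at 17.54 CPM on 2.

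In 3 genes the wild-type mouse differed in direction from every 3-week Th-MYCN+/- mouse, and these differences were not tested. They rest on the 39 wild-type cells whose markers went against the neuroblast name, and on few UMIs. Those 39 cells held 18 UMIs of the D-type cyclins together and 8 of Cdk4 and Cdk6 together. In the other wild-type classes compared, Ccnd3 had 10 UMIs in Schwann-like cells and Cdkn1b had 4 in ganglion-like cells. Neuroblast-like minus Schwann-like, the log2 level was 0.06 for Ccnd3, against -2.14 to -0.22 in the Th-MYCN+/- mice, and -1.16 for Cdk4, against 1.75 to 3.69. For Cdkn1b the difference between neuroblast-like and ganglion-like cells was -1.19, against 0.36 to 2.84.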

How the results depend on the processing

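Of 772 alternative values for 37 fold changes of the 10 genes, 712 kept direction and side of the threshold, 36 lost the call, 11 gained it and 13 reversed; no reversed value passed the threshold. Cdkn2d between S range and low-cycle cells gave -0.1107 without the replicate block, -0.4426 with 10 cells per sum (4 mice), -0.07711 with 500 genes and 5% mitochondrial, -0.1334 with Scrublet's top 5% removed, -0.4213 with limit 4 (3 mice), -0.3797 with shorter lists, and -0.1211 to 0.3012 leaving out 1 mouse. Ccnd3 between G2M and low-cycle cells gave 0.1753 with no filter, and Cdk4 between G2M and S ranges 0.06075 with no filter and 0.0922 with shorter lists. With no filter on low counts, called genes rose from 3935 to 7983 (neuroblast-like against Schwann-like), 2257 to 7053 (ganglion-like against Schwann-like), 702 to 1846 (S against low-cycle), 1403 to 3040 (G2M against low-cycle) and 302 to 522 (G2M against S), where more genes were tested. Log-normalized clustering gave 315 for S and 539 for G2M against low-cycle, and shorter lists 2246 for the latter. Leaving out 1 mouse gave 354 (without replicate 10) to 815 and 765 (without replicate 10) to 1467, and 374 for S without replicate 4. Without the replicate block the G2M against S count was 183; Ccnd1 between ganglion-like and Schwann-like cells lost its call (adjusted p = 0.0567) and Cdkn1b between neuroblast-like and Schwann-like cells gained it (adjusted p = 0.0425), and no other call of the 10 genes changed. The 6 calls on neighbouring classes became 0 with log-normalized clustering, resolution 1.0, 500 genes and 5% mitochondrial, 500 UMIs, 1000 UMIs, and Scrublet's top 5% removed. Co-detection of Ccnd1 with Cdkn1b was -2.774 at 500 UMIs, -4.877 at 2000 and -0.955 with log-normalized clustering. Other than where stated, the cause was not tested. DESeq2 size factors moved the median of all genes from 0.02 to 0.15 between ganglion-like and Schwann-like cells. Ccnd2, Cdk6 and Rb1 had 12, 5 and 83 UMIs in neuroblast-like cells, too few for the filter on low counts.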

Other observations

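Ccnd2 in endothelial-like cells was chosen for a remark after its values had been seen. It was at 1150 CPM in the 6-week mouse (45 UMIs in 28 cells, Poisson interval 838.5 to 1538) and at 788.5 CPM in the wild-type mouse (51 UMIs in 65 cells, 587.1 to 1037). In the 7 Th-MYCN+/- mice of 3 weeks with at least 20 such cells it ran from 173.1 through 182.3 to 305.4 CPM. Each of the other groups was 1 animal, so the difference was not tested. How many of all genes lay outside the 3-week range in endothelial-like cells was not counted, so how unusual these values are is not known.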
